A study of Drosophila melanogaster with 9 samples.

Results

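Levels of 10 transcripts that encode cyclins, cyclin-dependent kinases (Cdks) and regulators of mitosis were described in RNA immunoprecipitation libraries from Drosophila melanogaster ovaries. The members were CycA, CycB, CycB3, CycE, Cdk1, Cdk2, stg, twe, fzy and fzr, found as the rows of the count tables whose FlyBase IDs carry these symbols in Ensembl's BDGP6 annotation. All 10 were found among the 17024 IDs of each table, and all 10 passed the filter on low counts. Ovaries of flies carrying aramis::GFP::FLAG were dissected 1 to 3 days after eclosion, so all 9 libraries share this tagged allele, and no untagged ovary was sequenced. The IP libraries (n = 3) hold poly(A) RNA recovered with an anti-FLAG antibody, the IgG libraries (n = 3) RNA recovered with control mouse IgG, and the Input libraries (n = 3) RNA from the 10% of lysate that was kept back. The promoter of the tagged transgene is not given in the sources used here. The tagged protein is called Larp in the design text and aramis in the labels of the samples, which were followed. IP against IgG asks which RNAs the FLAG antibody recovered beyond the control antibody, and each pulldown against Input asks how its RNA differed from that of the lysate.

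Cyclins bind and switch on Cdks, which phosphorylate the proteins that carry out DNA replication and division. Cdc25 phosphatases remove inhibitory phosphates from Cdks, and the anaphase-promoting complex (APC/C) ends their activity by marking cyclins for destruction. In the fly ovary the germline cysts divide, enter meiosis and, in nurse cells, switch to endocycles, in which DNA is replicated without division. Follicle cells also divide and then endocycle, and the egg is loaded with cell cycle mRNAs for the divisions of the early embryo.

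The libraries held between 30533376 and 47080956 counts, and a count of 3, taken as the limit of detection, corresponded to between 0.0637 and 0.0983 CPM (a count relative to the size of its library). Every member lay far above that limit, with the lowest member count in any library at 1272, for twe in IgG replicate 2. One feature with the malformed ID FBgn000003 took between 0.684 and 1.04% of counts in IP, 5.89 and 14.6% in IgG, and 0.0113 and 0.0612% in Input. RNA of the tagged gene itself, ais, averaged 81.7 ± 13.9 CPM in IP, 79.1 ± 25.7 CPM in IgG and 78.97 ± 1.18 CPM in Input (SD, n = 3 each). The summed level of 5 germline markers (osk, orb, grk, bam, otu) was 2856 to 3432 CPM in IP, 2846 to 3094 CPM in IgG and 2995 to 3215 CPM in Input. None of these 5 was at 0, and they did not move in 1 direction. Higher on average in IP than in Input were orb (772 and 606 CPM), otu (1169 and 959 CPM) and grk (32.8 and 20.8 CPM). Lower were osk (1188 and 1502 CPM) and bam. The last, which acts in early cysts, averaged 10.8 ± 2.44 CPM in IP, 17.0 ± 4.82 CPM in IgG and 44.4 ± 2.1 CPM in Input. For 4 follicle cell markers (tj, Vm26Ab, Cp36, Yp2) the sum was 14851 to 16591 CPM in IP, 16076 to 20361 CPM in IgG and 10175 to 11160 CPM in Input. Of these, tj, Vm26Ab and Yp2 averaged higher in IP than in Input. Cp36 averaged lower, at 2470 ± 406 CPM in IP and 3007 ± 609 CPM in Input with overlapping ranges, and 4321 ± 1378 CPM in IgG. The 6 matched muscle markers summed to 779, 297 and 114.9 CPM in the IP libraries, 1972, 2390 and 483 CPM in the IgG libraries, and 391, 325 and 207 CPM in the Input libraries. The follicle cell sum was higher in every IP and IgG library than in every Input library, and the muscle sum was higher in every IgG library than in every Input library. No marker of either list was at 0, and the part of these sums in the results that follow was not tested. The labels call the libraries triplicates and do not say that they came from separate dissections, so p-values measure the spread between these libraries only.

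The members form related pairs, and the longest stretches of identical coding sequence that these pairs share were measured. Only a read lying wholly within such a stretch could not be told apart by sequence, and a read that reaches the differing flanks could be. Read length and the counting settings are not given in the sources used here. The longest identical run between the coding sequences of Cdk2 and Cdk1 was 17 bases, given in capitals with its flanks in the dm6 genome, at 3R:20735727-20735755 on the plus strand for Cdk2 and at 2L:10386131-10386159 on the minus strand for Cdk1.
Cdk2: gccgaaAAGATTGGCGAGGGCACctacgg
Cdk1: attgagAAGATTGGCGAGGGCACatatgg
The longest run between the Cdc25 phosphatases twe and stg was 20 bases, at 2L:16260864-16260895 for twe and at 3R:29253223-29253254 for stg, both on the minus strand.
twe: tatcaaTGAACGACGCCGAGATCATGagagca
stg: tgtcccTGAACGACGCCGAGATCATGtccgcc
Between fzr and fzy the longest run was 11 bases, and among the cyclin pairs compared it was 12 bases for CycB3 with CycB, 13 for CycB with CycA, 13 for CycE with CycA and 14 for CycB3 with CycA. In the pairs compared, no identical run was longer than that of twe and stg.

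The genes lie on the X chromosome and on both arms of chromosomes 2 and 3, and 4 of them overlap exons of a gene on the opposite strand. In BDGP6 coordinates, CycA (FBgn0000404) spans 3L:11826719-11833578, CycB (FBgn0000405) 2R:22803521-22806948, CycB3 (FBgn0015625) 3R:24867934-24870816 and CycE (FBgn0010382) 2L:15727581-15748150, all on the minus strand. Cdk1 (FBgn0004106) spans 2L:10384739-10386262 on the minus strand and Cdk2 (FBgn0004107) 3R:20735623-20738414 on the plus strand. The phosphatase genes stg (FBgn0003525, 3R:29251826-29255800) and twe (FBgn0002673, 2L:16259414-16261877) are on the minus strand. For the APC/C activators, fzy (FBgn0001086) spans 2L:16310956-16313097 on the plus strand and fzr (FBgn0262699) X:4667290-4679537 on the minus strand. The largest overlap was that of Cdk2, with 1010 of its 2299 exonic bases also in CG17267, which was at 0 CPM in IP, 0 CPM in IgG and 0.00845 CPM in Input. The other overlaps were 98 of 2379 bases of twe with EndoGI, 62 of 1996 bases of fzy with cact, and 150 and 98 of 5047 bases of CycE with asRNA:CR44866 and lncRNA:CR44974. The kit was directional, but whether reads were counted by strand is not given. Reads in these stretches could therefore belong to either gene or have been left uncounted. EndoGI averaged 41.1 ± 7.11 CPM in IP, 54.5 ± 24.5 CPM in IgG and 63.8 ± 1.26 CPM in Input, and cact 257 ± 7.39, 343 ± 36.0 and 394 ± 5.91 CPM in the same order (SD, n = 3 each).

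The members differed widely in level, and the B-type cyclin CycB, which drives entry into mitosis with Cdk1, was the most abundant in every group. Per kilobase of exon, CycB stood at 1256 ± 50.7 CPM in IP, 1076 ± 25.03 CPM in IgG and 1199 ± 11.3 CPM in Input (SD, n = 3 each). Its Input level was at the 99.3rd percentile of the 8574 tested genes with an annotated exon length. In Input the order below it was CycA (490.2 ± 7.60 CPM per kilobase), stg (209 ± 3.56), CycB3 (137 ± 4.48), Cdk1 (106 ± 7.99), CycE (84.9 ± 1.38), fzy (67.4 ± 0.98), Cdk2 (61.1 ± 3.26), twe (55.7 ± 2.49) and fzr (47.0 ± 1.70). No neighbours in the Input order overlapped in their 3 values. The level of Cdk2 was divided by all 2299 exonic bases, 1010 of them shared with CG17267. Its level and place in each group are too low if reads in the shared bases were left uncounted. CycB, CycA and CycB3, the cyclins of mitosis, thus all stood above the mitotic kinase Cdk1 per length of transcript in Input.

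The order changed in the pulldowns. In IP it ran CycB, CycB3 (306 ± 39.0 CPM per kilobase), CycA (229 ± 5.89), stg (201 ± 11.1), CycE (118 ± 5.73), Cdk1 (102 ± 7.73), Cdk2 (89.3 ± 13.6), fzy (85.6 ± 1.4), fzr (78.0 ± 3.26) and twe (26.6 ± 1.49). Cdk1 and Cdk2, and Cdk2 and fzy, overlapped there. In IgG it ran CycB, CycA (262 ± 42.0 CPM per kilobase), CycB3 (242 ± 23.8), stg (192 ± 15.6), Cdk1 (127 ± 14.3), CycE (96.4 ± 10.6), Cdk2 (94.5 ± 18.8), fzr (76.8 ± 4.49), fzy (66.6 ± 5.56) and twe (30.8 ± 10.8). Overlapping neighbours in IgG were CycA with CycB3, CycE with Cdk2, Cdk2 with fzr, and fzr with fzy. The germline Cdc25 twe was last in both pulldowns, whereas fzr was last in Input. The most abundant member exceeded the least abundant 47.2-fold in IP, 34.98-fold in IgG and 25.5-fold in Input.

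**Figure D1:**
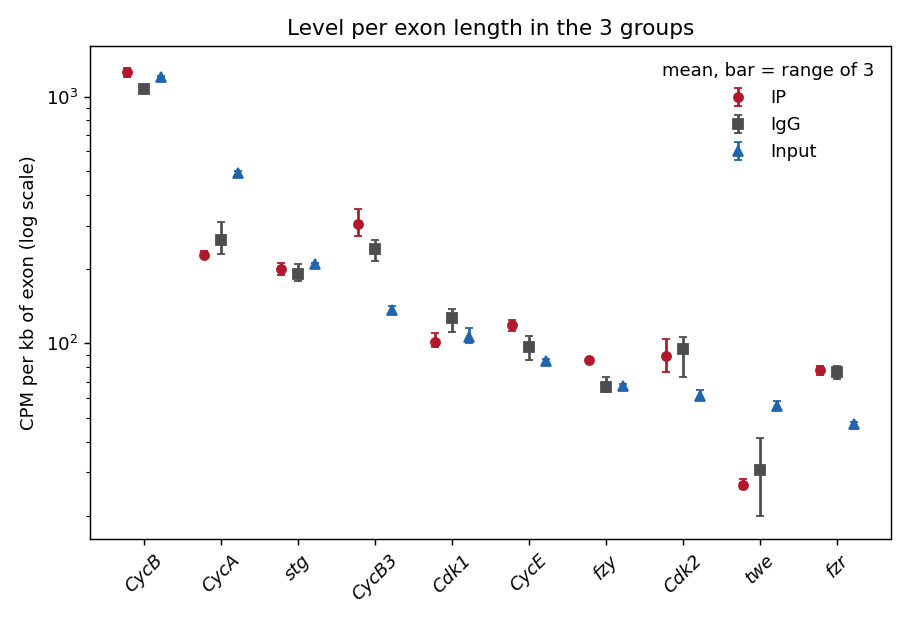
Levels of the 10 members per kilobase of exon in IP, IgG and Input, as CPM per kilobase on a log axis, with points for group means and bars for the range of 3 libraries. CycB is highest in every group, and the lowest member is twe in IP and IgG (26.6 and 30.8) and fzr in Input (47.0).

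Summed over the members, the level was 7359 ± 95.8 CPM in IP, 6587 ± 99.8 CPM in IgG and 7199 ± 60.3 CPM in Input (SD, n = 3 each), with CycB the largest term in each sum. In bulk ovary RNA, fewer cells of a type and less RNA per cell cannot be told apart, which applies to the levels in each group. From here on, differences are log2 fold changes with their standard errors (SE), from edgeR's quasi-likelihood test on 6 libraries, with p adjusted by Benjamini-Hochberg over the 8789 genes tested and a call made under 0.05.

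Among the cyclins, CycB3 was higher and CycA lower in IP than in Input. CycA, the cyclin that acts from S phase into mitosis, was at 688, 659 and 657 CPM in IP, 903, 718 and 670.4 CPM in IgG, and 1435, 1407 and 1451 CPM in Input. All pulldown libraries lay below all Input libraries, and the IP and IgG ranges overlapped. In edgeR CycA fell by 1.10 on the log2 scale in IP relative to Input (SE 0.05, adjusted p = 1.24e-07), and fell by 0.91 in IgG relative to Input (SE 0.11, adjusted p = 0.0042). Its difference of IP from IgG was -0.17 (SE 0.11, edgeR adjusted p = 0.401). Input thus held 2.15 times the IP level of CycA.

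CycB3, a B-type cyclin that promotes anaphase and is needed for female meiosis, had 789, 850 and 1007 CPM in IP, 621, 714 and 755 CPM in IgG, and 387, 387 and 409 CPM in Input. The 3 groups did not overlap. CycB3 was 2.23-fold higher in IP than in Input (log2 1.16, SE 0.09, edgeR adjusted p = 2.38e-06) and 1.76-fold higher in IgG than in Input (log2 0.82, SE 0.09, edgeR adjusted p = 0.0029). The IP over IgG value of 0.37 (SE 0.11) did not pass the test (edgeR adjusted p = 0.0791).

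CycB had 3863, 3963 and 3660 CPM in IP, 3353, 3201 and 3282 CPM in IgG, and 3614, 3682 and 3661 CPM in Input. The IP and Input ranges overlapped, and every IgG library lay below every library of the other groups. The IP over Input value was 0.06 (SE 0.06, edgeR adjusted p = 0.368), and CycB was lower in IgG than in Input by a small margin (-0.16, SE 0.04, edgeR adjusted p = 0.0405). CycB was the only member called between IP and IgG, where it was higher in IP (0.25, SE 0.06, edgeR adjusted p = 0.0442). Both of these calls lay close to the threshold. With any 1 of the 6 libraries left out, the IP over IgG call was lost (edgeR adjusted p 0.0616 to 0.229), and the IgG over Input call was lost without any 1 Input library (0.113 to 0.195) or without IgG replicate 2 (0.0617).

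CycE, the partner of Cdk2 that starts S phase and drives the endocycle, had 569, 598 and 627 CPM in IP, 434, 483 and 542 CPM in IgG, and 436, 425 and 423 CPM in Input. The IP libraries were above all others, while IgG and Input overlapped. CycE was 1.39-fold higher in IP than in Input (log2 0.48, SE 0.05, edgeR adjusted p = 3.57e-05). It did not pass the test between IP and IgG (0.32, SE 0.10, edgeR adjusted p = 0.0782) or between IgG and Input (0.18, SE 0.09, edgeR adjusted p = 0.206).

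Of the kinases, Cdk2 was higher in both pulldowns than in Input, and Cdk1 was not called in any comparison. Cdk1, the kinase of mitosis, had 105, 106 and 120 CPM in IP, 120.1, 150 and 142 CPM in IgG, and 111, 109 and 125 CPM in Input. IP and IgG did not overlap, and both overlapped the Input range. The edgeR values for Cdk1 were -0.06 in IP over Input (SE 0.08, adjusted p = 0.495), -0.30 in IP over IgG (SE 0.13, adjusted p = 0.184) and 0.26 in IgG over Input (SE 0.12, adjusted p = 0.160). Cdk2, the S phase kinase, had 177, 201 and 239 CPM in IP, 168, 240.2 and 244 CPM in IgG, and 135, 137 and 149 CPM in Input. Every pulldown library was above every Input library, and the pulldowns overlapped each other. Cdk2 was 1.46-fold higher in IP than in Input (log2 0.54, SE 0.10, edgeR adjusted p = 0.000966) and 1.55-fold higher in IgG than in Input (log2 0.63, SE 0.16, edgeR adjusted p = 0.029), with -0.06 between IP and IgG (SE 0.17, edgeR adjusted p = 0.882). The IgG over Input call of Cdk2 was lost without any 1 Input library (adjusted p 0.0814 to 0.102) and without IgG replicate 2 or 3 (0.0671 and 0.0655).

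The 2 Cdc25 phosphatases differed in their values. String (stg), the Cdc25 of mitotic cells, had 616, 581 and 649 CPM in IP, 642, 551 and 570.1 CPM in IgG, and 648, 627 and 644 CPM in Input, and all groups overlapped. Its edgeR values were -0.06 in IP over Input (SE 0.05, adjusted p = 0.377), 0.09 in IP over IgG (SE 0.08, adjusted p = 0.555) and -0.13 in IgG over Input (SE 0.07, adjusted p = 0.246). Twine (twe), the Cdc25 of meiosis, had 61.5, 61.1 and 67.5 CPM in IP, 98.7, 47.5 and 73.4 CPM in IgG, and 129, 129.7 and 139 CPM in Input. The pulldowns lay below Input without overlap, and the IgG libraries spread on both sides of the IP ones. In edgeR twe fell by 1.07 in IP relative to Input (SE 0.06, adjusted p = 5.74e-07), so that Input held 2.1 times the IP level. It also fell by 0.86 in IgG relative to Input (SE 0.25, edgeR adjusted p = 0.048), a call that was lost without any 1 Input library (adjusted p 0.119 to 0.142) or without IgG replicate 3 (0.0973). The IP over IgG value was -0.18 (SE 0.25, edgeR adjusted p = 0.725).

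Both activators of the APC/C were higher in IP than in Input. Fizzy (fzy, the fly Cdc20), which acts with the APC/C at the metaphase to anaphase step, had 173, 172 and 168 CPM in IP, 126, 146 and 127 CPM in IgG, and 137, 134 and 133 CPM in Input. Its IP values were above all others, and IgG overlapped Input. It was 1.27-fold higher in IP than in Input (log2 0.34, SE 0.05, edgeR adjusted p = 0.000142), with 0.39 in IP over IgG (SE 0.11, edgeR adjusted p = 0.0633) and -0.02 in IgG over Input (SE 0.09, edgeR adjusted p = 0.911). Fizzy-related (fzr, the fly Cdh1), which keeps mitotic cyclins low in G1 and in endocycling cells, had 208, 218 and 226 CPM in IP, 201, 226 and 216 CPM in IgG, and 126, 133 and 134 CPM in Input. Its pulldown ranges overlapped and both were above Input. It was 1.65-fold higher in IP (log2 0.73, SE 0.05, edgeR adjusted p = 2.46e-06) and 1.63-fold higher in IgG than in Input (log2 0.71, SE 0.08, edgeR adjusted p = 0.00326), and the IP over IgG value was 0.05 (SE 0.09, edgeR adjusted p = 0.814).

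**Figure D2:**
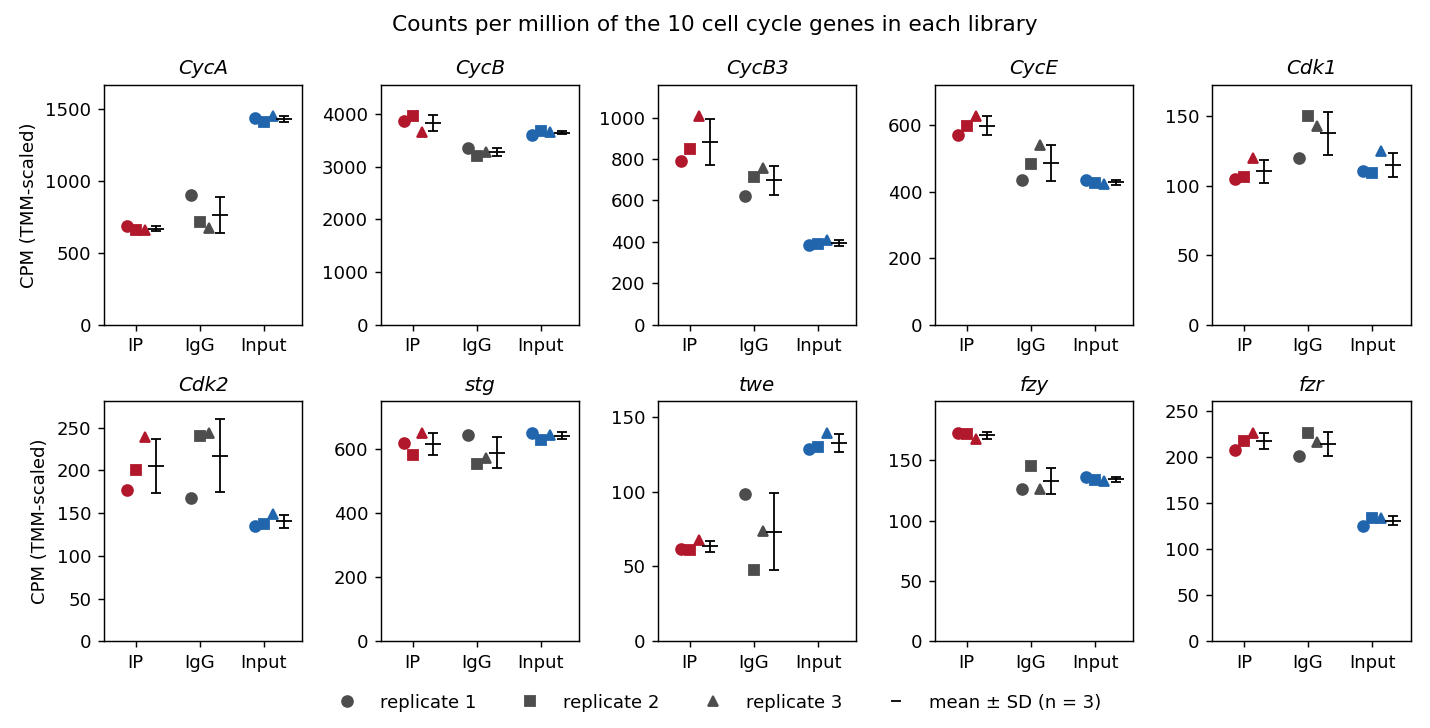
Level of each member in every library, in TMM-scaled CPM, with a marker shape for each replicate of IP, IgG and Input and the mean ± SD of each group beside it. CycA and twe are lower in both pulldowns than in Input, and CycB3, Cdk2 and fzr are higher.

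Counted over the members, IP over Input gave 5 calls higher (CycB3, CycE, Cdk2, fzy, fzr), 2 lower (CycA, twe) and 3 not called. Of all genes tested, 59.2% were called in this comparison, 28.5% higher and 30.8% lower, and 66.7% had groups that did not overlap. The members' groups did not overlap for 7 of 10, a share near that of all genes. Their median was 0.20, against 0.01 over all genes, with values between -1.10 and 1.16. All 7 calls held in each of the 16 alternative settings run, the 6 fits with 1 library left out among them.

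In edgeR IP over IgG gave 1 member called higher (CycB), 0 called lower and 9 not called. At an unadjusted p under 0.05 it had 4 higher and 0 lower, and DESeq2 called 4 higher and 0 lower. The shares of all genes under those rules are not given here, so these counts have no background to be read against. By edgeR's adjusted p, 7.96% of all genes were called, 4.77% higher and 3.2% lower, and 33.1% had groups that did not overlap. The IgG libraries differed more among themselves than those of IP or Input. A gene not called here is therefore not shown to be alike in IP and IgG. The groups did not overlap for 5 members, CycB, CycB3, CycE and fzy with IP above and Cdk1 with IgG above. The members' median was 0.07, against 0.03 over all genes, and their values ran between -0.30 and 0.39. The direction of calls in this comparison moved with the scaling: 59.9% of the calls over all genes were higher in IP, against 86.2% with library totals in place of TMM and 22.7% with a correction for exon length.

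IgG over Input gave 3 members called higher (CycB3, Cdk2, fzr), 3 lower (CycA, CycB, twe) and 4 not called. Of all genes, 26.9% were called, 10.3% higher and 16.6% lower, and 47.9% had groups that did not overlap. The groups did not overlap for 6 members, those called. Their median was 0.08, against -0.01 over all genes, with values between -0.91 and 0.82. Of the calls over all genes 38.4% were higher in IgG, against 25.8% with library totals and 49.5% with the exon length correction. The comparisons share libraries, IP over Input with IP over IgG the IP ones and with IgG over Input the Input ones, so their values are not independent of each other.

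**Figure D3:**
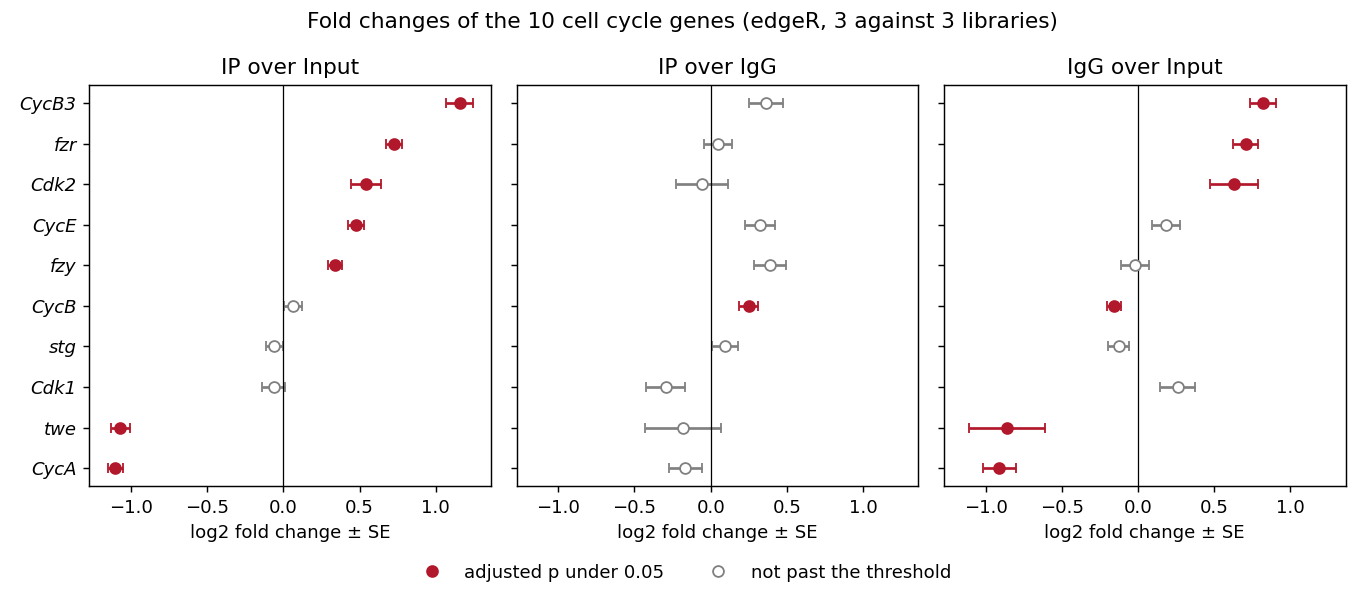
Log2 fold changes of the 10 members with their standard errors in IP over Input, IP over IgG and IgG over Input, from edgeR, with filled points for calls at an adjusted p under 0.05. Values against Input reach from -1.10 to 1.16, and IP over IgG values stay between -0.30 and 0.39.

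Within each library, related members were set against each other as a log2 ratio of their counts, which does not depend on how libraries were scaled. CycB3 over CycB was -2.13 ± 0.23 in IP, -2.24 ± 0.17 in IgG and -3.21 ± 0.05 in Input (SD, n = 3 each). Cdk2 over Cdk1 was 0.89 ± 0.12 in IP, 0.65 ± 0.15 in IgG and 0.29 ± 0.04 in Input. Twe over stg was -3.28 ± 0.04 in IP, -3.06 ± 0.43 in IgG and -2.27 ± 0.06 in Input. For fzr over fzy the ratio was 0.35 ± 0.08 in IP, 0.69 ± 0.07 in IgG and -0.04 ± 0.07 in Input. The ratios were not corrected for transcript length, and only their differences between groups are compared. A dependence on length that itself differs between groups would still enter these, as for Cdk2 and Cdk1 (2299 and 1082 exonic bases).

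In each of the 4 pairs the IP and IgG ratios lay apart from the Input ratios without overlap. How often ratios of other gene pairs lie apart was not computed, so this is not shown to be particular to these pairs. Each pair holds a member already called against Input in both pulldowns. Of single genes, 66.7% did not overlap between IP and Input, and 47.9% between IgG and Input. The differences were 1.09 for CycB3 over CycB, 0.60 for Cdk2 over Cdk1, -1.01 for twe over stg and 0.38 for fzr over fzy in IP minus Input. The IgG minus Input differences were 0.97, 0.35, -0.79 and 0.73 in the same order of pairs. In IP minus IgG they were 0.11, 0.24, -0.22 and -0.34, and only fzr over fzy did not overlap there. With 3 libraries against 3, an exact two-sided permutation test cannot go below p = 0.1, which all 9 differences without overlap reached, and the other 3 had an exact p of 0.2 to 0.6. Over the 12 ratio tests the smallest adjusted value was 0.133.

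**Figure D4:**
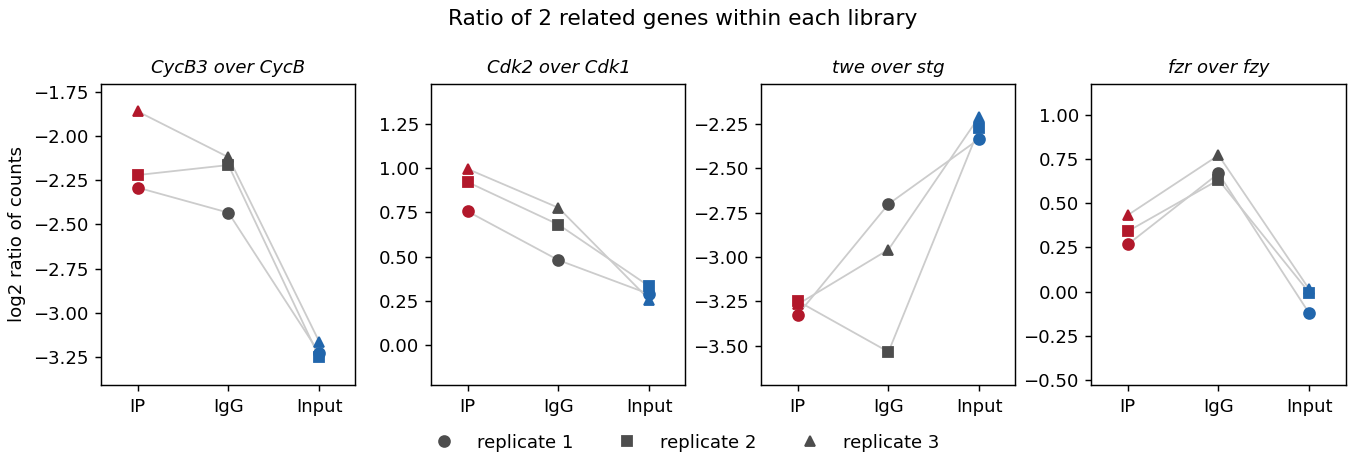
Log2 ratio of counts between related members within each library, for CycB3 over CycB, Cdk2 over Cdk1, twe over stg and fzr over fzy, with points for the 3 libraries of IP, IgG and Input and grey lines that join libraries of the same number. The pulldown ratios stand apart from the Input ratios in all 4 pairs, and IP stands apart from IgG only for fzr over fzy. The share of other gene pairs that stand apart was not computed.

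The other genes of the cell cycle were taken from 7 lists that hold 79 genes, of which 76 were matched and tested. In IP over Input 36 were called higher, 22 lower and 18 not, with a median of 0.16. IP over IgG gave 5 higher, 1 lower and 70 not called, with a median of 0.08, and IgG over Input gave 15 higher, 8 lower and 53 not called, with a median of 0.03. These counts, and the calls by edgeR's adjusted p per list below, can be read against the 59.2, 7.96 and 26.9% of all genes called in the same comparisons. Counts per list at an unadjusted p or from DESeq2 have no such share here. By direction, 28.5, 4.77 and 10.3% of all genes were called higher, and 30.8, 3.2 and 16.6% lower.

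Among 14 other cyclins and Cdks, 6 were higher and 4 lower in IP than in Input. Between IP and IgG edgeR called 0 of them, with 1 higher and 1 lower at an unadjusted p under 0.05 and 1 higher and 1 lower in DESeq2. CycD, the G1 cyclin that partners Cdk4, averaged 76.1 ± 8.33 CPM in IP, 92.6 ± 2.14 CPM in IgG and 185 ± 3.50 CPM in Input (SD, n = 3 each). In edgeR it fell by 1.29 in IP relative to Input (adjusted p = 5.90e-07) and by 1.00 in IgG relative to Input (adjusted p = 0.00123). Of 8 direct regulators of Cdks, 3 were higher and 4 lower in IP than in Input. Between IP and IgG edgeR and DESeq2 called 0 of them, with 2 higher at an unadjusted p under 0.05. Rca1, an inhibitor of the APC/C with fzr, averaged 208 ± 23.0 CPM in IP, 168 ± 16.3 CPM in IgG and 91.6 ± 2.59 CPM in Input, and was higher in IP (1.18, edgeR adjusted p = 1.08e-06) and in IgG (0.87, edgeR adjusted p = 0.00326) than in Input. Cks30A, a small Cdk-binding subunit needed in female meiosis, was also higher in IP (0.91) and in IgG (0.86) than in Input. Lower in IP were Myt1, a kinase that inhibits Cdk1 (-0.99), and trbl, which promotes the destruction of the stg protein (-1.08).

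The APC/C list held 12 tested genes, of which 4 were higher and 4 lower in IP than in Input and 2 higher in IP than in IgG. Both of those 2 encode subunits of the complex. Cdc27 averaged 255 ± 11.7 CPM in IP, 151 ± 18.4 CPM in IgG and 159 ± 2.41 CPM in Input, and its IP over IgG value was 0.78 (SE 0.11, edgeR adjusted p = 0.00417). The large subunit shtd averaged 316 ± 2.87 CPM in IP, 210.4 ± 24.8 CPM in IgG and 137 ± 8.93 CPM in Input, with 0.61 in IP over IgG (SE 0.10, edgeR adjusted p = 0.00869). A further subunit, mr, lay the other way, at 27.6 CPM in IP, 47.5 CPM in IgG and 76.6 CPM in Input, and fell by 1.48 in IP relative to Input (edgeR adjusted p = 3.98e-06).

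Of 13 mitotic and egg kinases and PP2A subunits, 8 were higher and 2 lower in IP than in Input, and 7 were higher and 1 lower in IgG than in Input. The mitotic kinase aurA averaged 165 ± 17.5 CPM in IP, 94.2 ± 27.9 CPM in IgG and 70.4 ± 4.24 CPM in Input, and was higher in IP than in Input (1.22, edgeR adjusted p = 1.32e-06). Greatwall (gwl), which restrains PP2A in mitosis, was lower in both pulldowns, with a log2 value of -0.88 in IP and -0.77 in IgG. The 1 gene of this list called between IP and IgG was tws, the PP2A regulatory subunit that opposes Cdk1, at 408 ± 18.4 CPM in IP, 554 ± 46.7 CPM in IgG and 561 ± 9.53 CPM in Input. In edgeR it fell by 0.42 in IP relative to IgG (SE 0.09, adjusted p = 0.0222).

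Of 9 spindle checkpoint and separase genes, 4 were higher and 2 lower in IP than in Input. Between IP and IgG edgeR and DESeq2 called 0 of them, with 2 higher and 1 lower at an unadjusted p under 0.05. The checkpoint kinase Mps1 was higher in IP than in Input (1.03) and mad2 lower (-0.86). Of 15 S phase and endocycle genes, 9 were higher and 3 lower in IP than in Input, and 2 were higher in IP than in IgG. These were Rbf, the fly retinoblastoma protein that holds back E2F, at 429 ± 26.1 CPM in IP, 323 ± 15.1 CPM in IgG and 281 ± 5.25 CPM in Input, and Mcm5, a subunit of the replicative helicase, at 277 ± 18.9 CPM in IP, 208 ± 26.6 CPM in IgG and 214 ± 7.46 CPM in Input. Both had 0.44 in IP over IgG, with edgeR adjusted p of 0.0148 for Rbf and 0.0495 for Mcm5. Of 5 DNA damage checkpoint genes, 2 were higher and 3 lower in IP than in Input. The ATM kinase gene tefu averaged 110.0 ± 3.30 CPM in IP, 49.4 ± 10.6 CPM in IgG and 61.7 ± 4.16 CPM in Input, and was the 1 gene of its list called between IP and IgG (1.18, SE 0.18, edgeR adjusted p = 0.00534).

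Of the 6 listed genes called between IP and IgG, the exon length correction left 2 called, Cdc27 (0.60, edgeR adjusted p = 0.0289) and tws (-0.71, edgeR adjusted p = 0.00452). The other 4 kept their direction under it without passing the test, at 0.77 for tefu (edgeR adjusted p = 0.0920), 0.41 for Mcm5 (0.104), 0.26 for Rbf (0.139) and 0.26 for shtd (0.172). The exons of these 6 genes sum to 8416 bases for tefu, 6481 for shtd, 5059 for tws, 3713 for Cdc27, 3619 for Rbf and 2452 for Mcm5. Cdc27 was called in all 16 alternatives, tefu in 15, shtd in 14, tws in 12, Rbf in 11 and Mcm5 in 9.

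**Figure D5:**
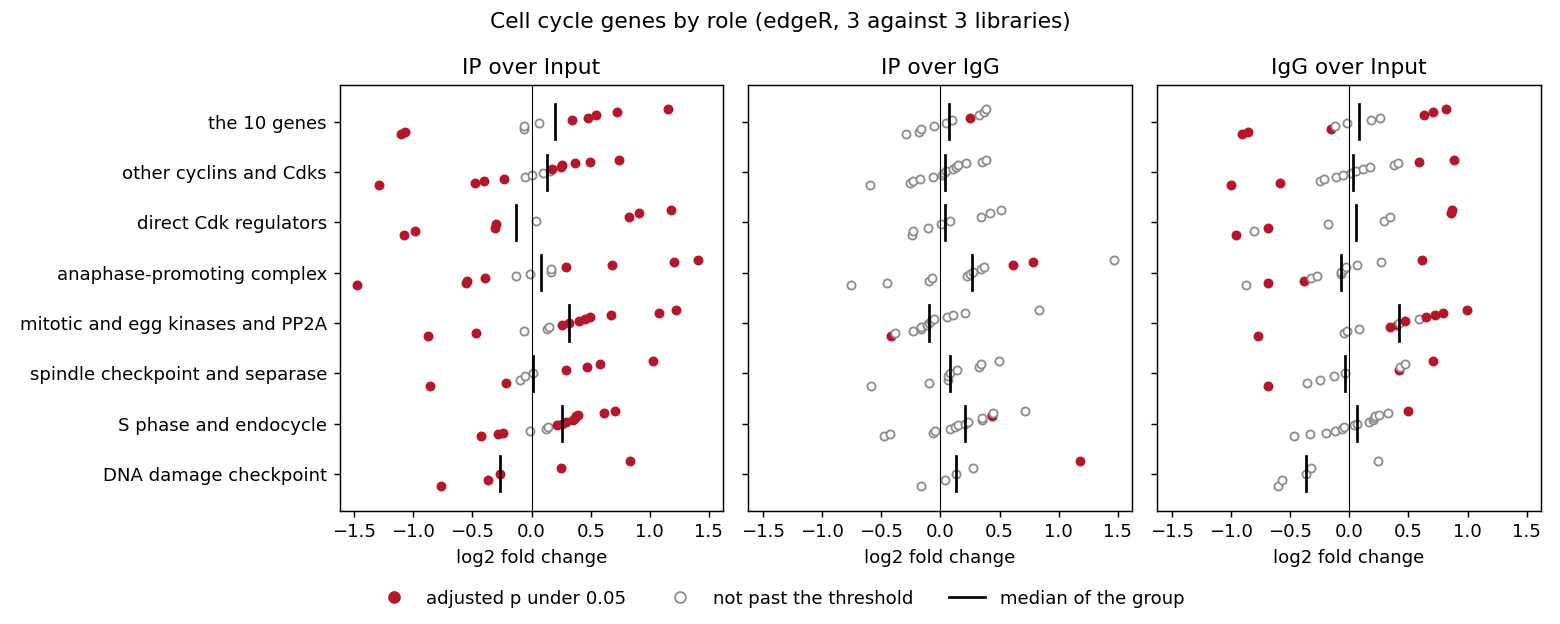
Log2 fold changes of the 10 members and, by list, the 76 other cell cycle genes, with black bars for medians, in IP over Input, IP over IgG and IgG over Input, with filled points for edgeR calls at an adjusted p under 0.05. Among the 76, IP over Input has 36 calls higher and 22 lower, and IP over IgG 5 higher and 1 lower.

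The profiles of the members over the 9 libraries were compared by the Euclidean distance between log2 CPM values centred on each gene's mean, as a description without a test. The closest members were CycB and stg (0.31), followed by CycE and fzy (0.40), CycB and fzy (0.40), and Cdk2 and fzr (0.47), while CycA and twe were 0.61 apart. The farthest were CycB3 and twe (2.98) and CycA and CycB3 (2.95). Of the 6350 candidates, tested genes whose 9-library mean reached 10 CPM, the profiles most like that of CycA were those of CG1354 (0.13), Ndf (0.16) and alph (0.22), which averaged 91.3, 211 and 109 CPM in IP, 99.5, 229 and 128 CPM in IgG, and 198, 422 and 221 CPM in Input. Nearest to CycB were mfrn (0.12), Gcna (0.16) and Rox8 (0.17), and nearest to stg were Su(var)3-7 (0.13), CG6178 (0.14) and CG33181 (0.15). All genes share the depth and scaling of the same 9 libraries, so these distances rank likeness only.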

How the data were processed

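The values the authors deposited are unnormalized whole-number counts for each FlyBase ID in 9 libraries (3 each of IP, IgG and Input, from the titles). The submitters' processing notes name HISAT2 2.1.0, featureCounts 1.4.6 and dm6, and their settings are not given in the sources used here. Symbols and exon lengths came from Ensembl BDGP6 (16647 IDs named), and sequences from the RefSeq dm6 genome. Groups were compared pairwise with edgeR 4.0.16 in R 4.3.3 (TMM, robust quasi-likelihood, two-sided). Its expression filter (minimum count 10) left 8789 genes and set aside 8235. CPM values are TMM-scaled, and the SE was derived from the F statistic. Floors of 3 counts cover counting error only. Replicates of a group differed beyond sampling noise (chi-square per degree of freedom 7.05 to 309). Fits were tested on simulated counts, with 100 genes changed by 1 and 100 by 2 on the log2 scale among 8789. Of 100 genes set to change by 1 on the log2 scale, edgeR recovered 75% in IP over Input, 48% in IP over IgG and 39% in IgG over Input. Of unchanged genes it called 0.0815, 0.0931 and 0.0349% in the same order. Far fewer genes changed in the simulation than were called in the data. The adjusted p depends on that share, so these rates do not carry over to the reported fits.

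Members and lists were chosen with earlier results of these data known. Listed genes were named as the 2 largest rises and falls called per list and comparison where the 6-library mean reached 10 CPM, and the text gives part of them. The genes with the nearest profiles were found with a pseudocount of 1 CPM. Deviations from group means correlated between same-numbered IP and Input libraries (0.27, 0.29 and 0.39), so these numbers, which the titles give, could mark pairs. The reported fits leave the pairing out. The replicate block, run as an alternative, changed no member call in IP over Input. Correlations were weaker between same-numbered libraries of IP and IgG (0.07, 0.04 and 0.19) and of IgG and Input (0.09, 0.09 and 0.19). Libraries of different number gave -0.23 to -0.016, -0.15 to 0.088 and -0.12 to 0.033 in the same order. Alternatives were DESeq2 1.42.0, its size factors, library totals, other filters, 1 fit over 9 libraries, the replicate block, an exon length correction (loess span 0.3), a stricter threshold, each library left out and, added after the data were seen, removal of FBgn000003. The listed genes lmg, Orc1 and Mcm3 and the muscle marker wupA were not matched.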

Additional observations from a re-analysis of the deposited data

How the results depend on the processing

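The 7 member calls in IP over Input held in each of 16 alternatives, and the order of member levels was the same with library totals in all 3 groups. CycB (0.16) gained a call in IP over Input with library totals and with the exon length correction, alone or with the replicate block. For IP over IgG, 1 member was called, against 4 with DESeq2, library totals or 1 fit over 9 libraries, 3 with the replicate block, 0 with DESeq2 size factors, a mean of at least 50 counts, the exon length correction or an adjusted p under 0.01, and 0 to 1 with 1 library left out. Of all genes, IP over IgG called 7.96% in the reported fit, 13.6% with library totals and 14.4% with the replicate block. It called 7.52% with DESeq2 size factors and 2.67% with the exon length correction. Shares for the other settings are not given here, so counts under them have no background. The CycB call was lost in 10 of 16, while CycB3, CycE and fzy gained one under some. With the exon length correction, the CycE value in IP over IgG was 0.03 (edgeR adjusted p = 0.929). Under the same correction CycE gained a call in IgG over Input (0.39, edgeR adjusted p = 0.0386), also with the replicate block (0.38, 0.00583). Library totals moved the median of all genes to 0.22 in IP over IgG and -0.14 in IgG over Input, and the replicate block moved them to 0.14 and -0.17, so values under these settings stand relative to those shifts. For IgG over Input, 6 members were called, 3 at an adjusted p under 0.01, and 3 to 9 with 1 library left out (3 without any 1 Input library, 9 without IgG replicate 1). Without that library CycE (0.26), Cdk1 (0.35) and stg (-0.19) were called. The CycB call there was lost with DESeq2 size factors, a mean of at least 50 counts, the replicate block, any 1 Input library left out or IgG replicate 2 left out, and turned to 0.0547 with the exon length correction, alone or with the block. The twe call was also lost with DESeq2 size factors and the exon length correction.

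Of the other cell cycle genes, IP over Input called 58, against 34 in 1 fit over 9 libraries. IP over IgG called 6, against 14 with DESeq2, 13 with library totals, 18 in 1 fit over 9 libraries, 15 with the replicate block, 2 with the exon length correction, 10 with both, 3 at an adjusted p under 0.01 and 3 to 10 with 1 library left out (3 without any 1 IP library, 10 without IgG replicate 3). IgG over Input called 23, against 8 at an adjusted p under 0.01 and 7 to 32 with 1 library left out (7 or 8 without any 1 Input library). The IP over IgG counts can be read against the shares of all genes given above for the same settings. For the remaining settings no such share is given here.

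The other values that changed sign were not called in the report or the alternative. Their reported values lay as far from 0 as -0.18, for twe in IP over IgG. With library totals these were Cdk1 (0.0295) and stg (0.0336) in IP over Input, and CycA (0.0200) and Cdk2 (0.142) in IP over IgG. With the exon length correction, alone and with the replicate block, they were Cdk1 (0.114 in both) and stg (0.0370 alone and 0.0354 with the block) in IP over Input, stg (-0.0173 and -0.0171) and fzr (-0.0320 and -0.0293) in IP over IgG, and stg (0.0875 and 0.0860) and fzy (0.113 and 0.109) in IgG over Input. The fzy value in IgG over Input was also 0.0074 with DESeq2, 0.0076 with its size factors and 9.2e-05 with a mean of at least 50 counts. With 1 library left out, ranges were -0.130 to 0.0010 for Cdk1 in IP over Input, -0.242 to 0.0381 for Cdk2, -0.431 to 0.0622 for twe and -0.0254 to 0.0748 for fzr in IP over IgG, and -0.0880 to 0.0177 for fzy in IgG over Input. The cause of these changes was not tested. Removing FBgn000003 changed no call of a member. Taken within libraries of the same number, the Cdk2 over Cdk1 ratio differed by 0.219 to 0.275 in IP minus IgG. It was higher in IP in all 3, which were not treated as pairs in the reported fits. That ratio is not corrected for length. With the exon length correction the IP over IgG values of Cdk2 and Cdk1 were -0.07 and -0.07, against -0.06 and -0.30 without it.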
